A study of Mus musculus with 96 samples.

Results

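The immunoproteasome and the peptide loading machinery supply peptides to MHC class I molecules, and 10 mouse genes of this system were listed: Psmb8, Psmb9, Psmb10, Psme1, Psme2, Tap1, Tap2, Tapbp, B2m and Erap1. Members were found by the gene symbol that the platform annotation gives a probe set, which is a group of short probes for 1 transcript. Of the 10 listed genes, 7 had a probe set, and these 7 genes held 10 of the 18858 probe sets on the array. Tap1, Tap2 and B2m were not analysed here. The symbols alone tied probe sets to the listed genes, with no measured value. The list itself was chosen with earlier results of these data known. The 7 members were 7 of 7741 named genes that could be tested.

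The arrays measured total RNA of mouse primary bone marrow derived dendritic cells after addition of 1 of 5 stimuli, which the labels call Lps, Pic, Pam, Cpg and Grd. The labels do not spell these out. As the study is known, they are lipopolysaccharide, a ligand of TLR4, poly(I:C), a ligand of TLR3, a synthetic lipopeptide, a ligand of TLR2, CpG DNA, a ligand of TLR9, and gardiquimod, a ligand of TLR7. Each stimulus was followed at 0.5, 1 and 2 h, at 4, 6 and 8 h and at 12, 16 and 24 h, on 2 arrays a time, with a single Cpg array at 16 h and at 24 h. The Control group held 8 arrays of unstimulated cells, 1 each at 0, 1, 2, 4, 6, 8, 12 and 24 h. In all there were 96 arrays: 18 for every stimulus but Cpg, which had 16, and the 8 of Control. The labels give no genotype, strain, age or dose, and whether the 2 arrays of a group are separate cultures is not stated in them. All p-values therefore measure only the spread between these arrays, which may be technical. A position on the sample plate was tied to each stimulus and time, so position and stimulus cannot be told apart.

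Proteasomes cut intracellular proteins into peptides. Interferons and other inflammatory signals let cells replace the constitutive catalytic subunits Psmb5, Psmb6 and Psmb7 by the immunosubunits Psmb8 (LMP7), Psmb9 (LMP2) and Psmb10 (MECL-1), in this order, and the PA28 activator, made of Psme1 and Psme2, opens the proteasome's gate. The TAP transporter, made of Tap1 and Tap2, carries peptides into the endoplasmic reticulum, where Erap1 trims them and tapasin (Tapbp) holds the class I molecule, a heavy chain with B2m, until a peptide is bound. Dendritic cells present such peptides to CD8 T cells.

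Several members sit together in the MHC region of mouse chromosome 17. In RefSeq's annotation of GRCm38.p6, Psmb9 spans chr17:34182030-34187330, Tap1 chr17:34187556-34197225, Psmb8 chr17:34198195-34201454 and Tap2 chr17:34204479-34216321, and Tapbp lies apart at chr17:33919478-33929290. Psme1 (chr14:55578494-55581527) and Psme2 (chr14:55587440-55591101) are neighbours on chromosome 14, Psmb10 is at chr8:105935728-105938392 and Erap1 at chr13:74639573-74693205. Psmb9 and Tap1 start 226 bases apart on opposite strands and share the stretch between their starts. That stretch is shown because one of the Psmb9 probe sets could not be assigned with certainty to Psmb9 rather than to its neighbour, and the Psmb8 upstream sequence is shown for the position of its GAS core. Both are from RefSeq's GRCm38.p6 sequence, on the plus strand and 5′ to 3′. Capitals mark the complement of a GC box (GGGCGG) in the first and a GAS core (TTCNNNGAA), a pattern bound by STAT factors, in the second.
Psmb9 to Tap1, chr17:34187331-34187555: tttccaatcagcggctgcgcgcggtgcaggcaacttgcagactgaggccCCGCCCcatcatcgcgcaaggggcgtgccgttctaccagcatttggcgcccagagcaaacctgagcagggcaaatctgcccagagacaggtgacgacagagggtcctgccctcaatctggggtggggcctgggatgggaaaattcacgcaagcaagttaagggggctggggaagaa
Psmb8 upstream, chr17:34197945-34198194: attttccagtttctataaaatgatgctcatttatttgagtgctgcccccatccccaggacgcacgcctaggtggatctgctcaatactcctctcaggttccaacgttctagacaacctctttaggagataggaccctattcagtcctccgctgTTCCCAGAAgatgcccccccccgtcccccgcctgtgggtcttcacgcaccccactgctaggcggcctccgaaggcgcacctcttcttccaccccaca

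In the shared stretch the GC box lies 50 bases from the start of Psmb9 and 171 bases from that of Tap1. In Psmb8 the GAS core covers bases 97 to 89 upstream of the start. The 250 bases upstream of 32851 promoters were searched on both strands for 4 patterns. The ISRE core (GAAANNGAAA) was in 2.98% of them, the GAS core in 7.02%, the NF-kB site in 7.25% and the GC box in 32.7%. Upstream of the other members, Psme1, Psme2 and Tapbp held a GC box, and Psmb10 and Erap1 held none of the 4 patterns. B2m, which had no probe set, held an ISRE core and an NF-kB site. A match is a description of the letters in this window only.

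The deposited values are RMA intensities on a linear scale with a floor of 20, at which each array had 33.1% to 34.6% of its probe sets. Array medians were 48.75 to 59.5. Between arrays of 1 stimulus and time, r over all genes was 0.985 to 0.998, and genes do not count as replicates. All 10 dendritic cell markers had a probe set and none was at the floor throughout. Their summed intensity was 30293 to 41628 over the stimulated arrays and 38043 to 41327 under Control. In late Grd it was 30293 to 37294, wholly below Control. Bright genes such as Ctss (median 10347) and Cd74 (7602) weigh most in it, while Flt3 (median 27.45, at most 42) and Zbtb46 (median 47.5) were dim. The summed intensity of 8 of 9 macrophage markers was 7618 to 15473 under Control and 3642 to 6203 under Pic from 12 h on, wholly below Control. It was also wholly below Control in middle Lps (5503.8 to 6539), early Pic (6237.5 to 7397.5) and middle Pic (6155 to 7341.6). From 12 h on it was 8838 to 16471 under Pam and 9121 to 17895 under Grd, which overlap Control. The sum of 7 of 10 neutrophil markers was 5172 to 8190 under Control, 3917 to 6187 under late Pic and 1207 to 3028 under late Lps. Like late Lps, late Pam (2284.5 to 3226.9), late Cpg (1597.7 to 3780.7) and late Grd (2177.1 to 4392.3) were wholly below Control. Cd3g, Cd2, Cd5 and Cd8b1, 4 of the 6 T cell markers with a probe set, were at the floor on all arrays. The summed NK cell markers (4 of 6 with a probe set) were at 182 to 239 under Control. They were at 404 to 624 in middle Pic, 322 to 428 in middle Lps, 83.6 to 148 in middle Pam and 424 to 598 in late Pic. In late Lps they were at 187 to 261, in middle Cpg at 207.6 to 342.5 and in middle Grd at 169 to 222, which overlap Control. Of these markers Ncr1 and Gzma were at the floor on all arrays and Prf1 reached at most 24, so the sum mostly follows Klrk1 (23.6 to 564.1). The summed plasmacytoid dendritic cell markers (4 of 5, with Klk1 at the floor) were 125 to 164 under Control. They were 315 to 676 in middle Lps, 291 to 450 in middle Pic and 236.6 to 474.5 in middle Cpg. In this bulk RNA, fewer cells of a type and less RNA per cell cannot be told apart, and the part of these markers in the results was not tested.

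Members were read from 1 probe set each, except Psmb9 and Tapbp. Psmb9 had 3 probe sets. Probe set 1450696_at matches a RefSeq transcript of Psmb9 and is called its RefSeq probe set, and its values are given as those of Psmb9. Probe set 1416016_at is named for Psmb9 by the platform but was designed from an expressed sequence tag (its EST probe set), and it was the brightest of the 3 over all arrays. It stood for Psmb9 in the counts of members, and each count that differs with the RefSeq probe set is given with both. Whether the EST probe set measures Psmb9 or a neighbouring transcript is not settled by the files. Probe set 1448177_at was above the floor on 17 of 96 arrays, at most at 31.4, and is not used further. Tapbp had 2 probe sets, of which 1421812_at was the brighter. Levels of different probe sets are not compared.

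Differences are on the log2(intensity + 1) scale, with the standard error of a linear model (limma) after ±. A member passed when its Benjamini-Hochberg adjusted p over all 10543 genes and unnamed probe sets was under 0.05. Times were joined into 3 windows, called early for 0.5, 1 and 2 h, middle for 4, 6 and 8 h, and late for 12, 16 and 24 h. Each window held 6 arrays of a stimulus, and 4 for late Cpg. Each window was set against the same 8 Control arrays, so the differences of the 5 stimuli from Control share them.

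**Figure D1:**
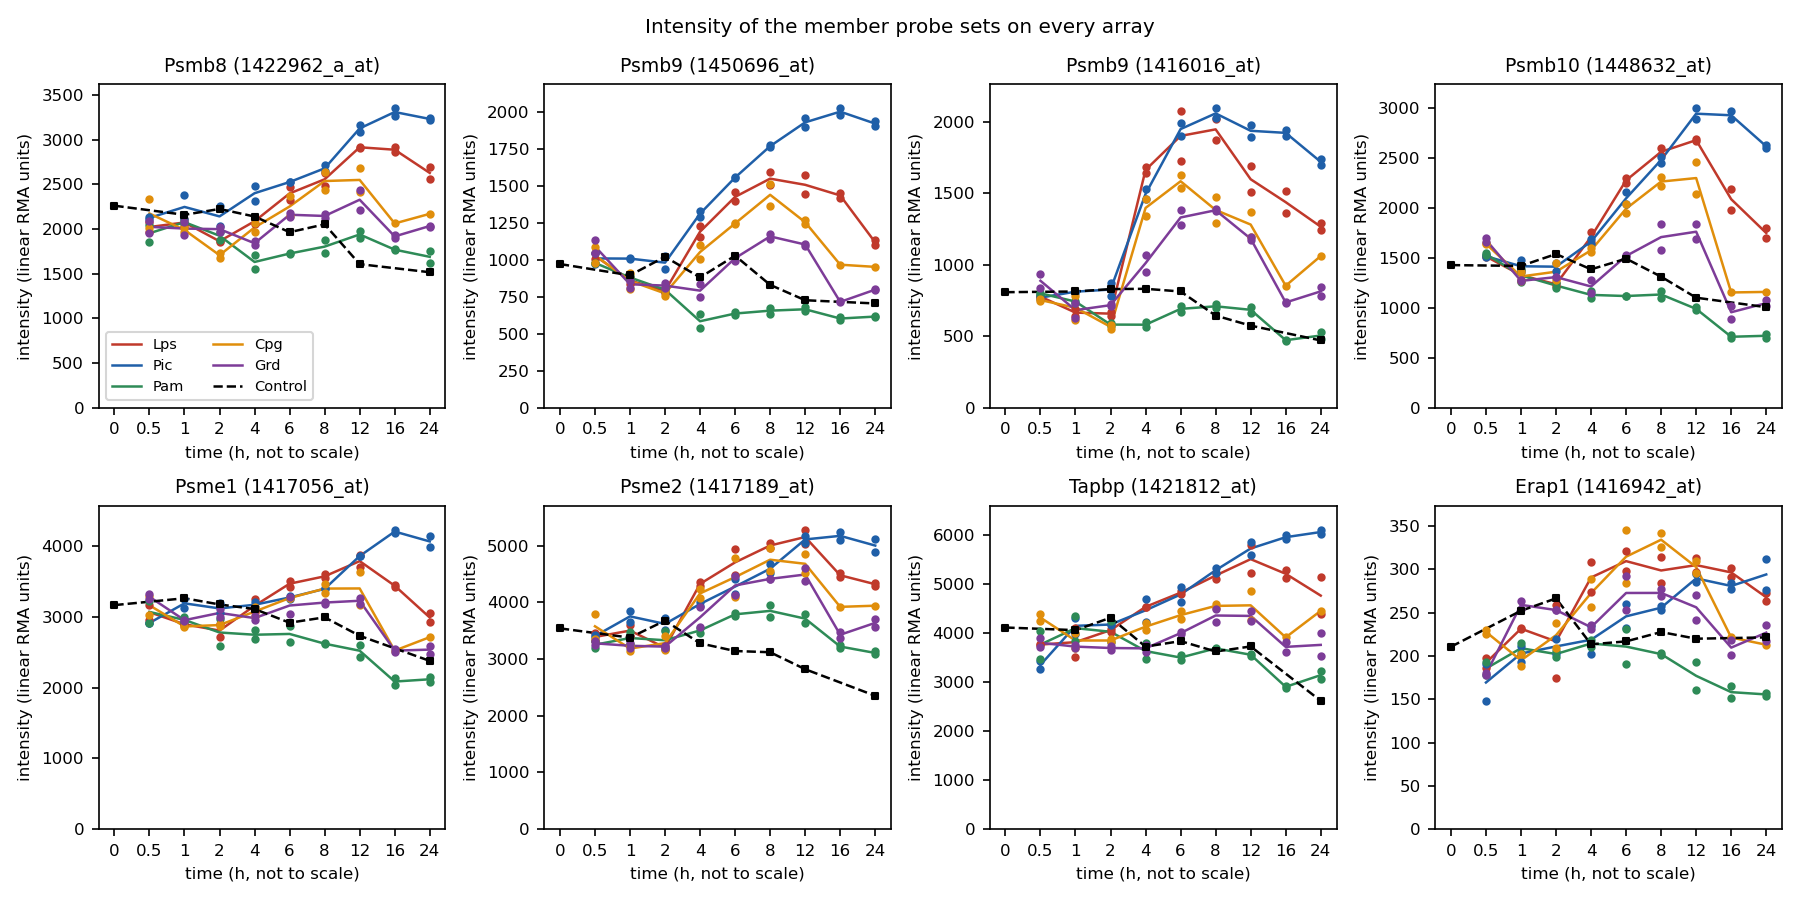
Intensity (linear scale) of the 7 members against time in hours (axis not to scale), with a panel for each member and for each of the 2 bright Psmb9 probe sets. Each point is 1 array, lines join the group means of each stimulus, and dashed squares are the Control arrays. From 12 h on the Pic arrays lie above all 8 Control arrays in all panels, and Pam lies lowest among the stimuli.

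Every member was expressed in unstimulated cells. The mean Control intensity was 1991 ± 282 (SD, n = 8) for Psmb8, 883 ± 124 for Psmb9, 1336 ± 188 for Psmb10, 2967 ± 292 for Psme1, 3163 ± 422 for Psme2, 3748 ± 514 for Tapbp and 229 ± 20.1 for Erap1. These levels drifted. The 24 h array was the lowest of the 8 for all members but Erap1, for example 1516.2 against 1606.7 to 2261.3 in the others for Psmb8. Over the 8 Control arrays, Psmb8, Psme1 and Psme2 fell with time (3 of 7 members, where 7.06% of all genes fell), by 0.13, 0.09 and 0.12 per doubling of hours + 1, with limma's adjusted p of 0.0414, 0.042 and 0.0401. No member rose over time in the same test, where 5.25% of all genes rose and 0 members did so at an unadjusted p under 0.05. Erap1 had a slope of -0.02 (adjusted p = 0.737 in limma). The 3 falls rest on few arrays, since leaving out 1 array gave between 0 and 4 of 7 members. A late window is thus compared below both with all 8 Control arrays and with the other stimuli, which need no Control array.

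Within the first 2 h few members passed against all 8 Control arrays. In Pic, 4 of 7 passed as higher (17.7% of all genes did) and 1 as lower (27.2%), and Pam had 1 lower (35.4%). Pam had 0 higher (18.5%). Lps (18.4% higher and 33.6% lower over all genes), Cpg (14.5% and 32.2%) and Grd (15.1% and 22.5%) had 0 of 7 in either direction in limma. At an unadjusted p under 0.05, 1 member was higher in Cpg and none otherwise in these. Early counts depend on the baseline. Against the Control arrays of 1 and 2 h alone, with all early stimulus arrays kept, none of 7 was higher in Pic, and 4 of 7 were lower in each of Lps, Pam and Cpg. With the stimulus arrays of 0.5 h left out as well, 6 were lower in Cpg, 4 in Lps, 4 in Pam and 2 in Grd. Shares of all genes that passed are not given with this baseline, so these counts have no background beside them. Against all 8 Control arrays, the count of 4 higher in Pic was 1 without the Control array of 12 h or of 24 h, either Pic array of 0.5 h, or the first Pic array of 1 h or 2 h, and 2 without the Control array of 8 h.

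In the middle and the late window the immunosubunits, tapasin and PA28 were above Control in cells given Lps or Pic. Under Cpg they were above it in the middle window, and in the late window Psmb10 (0.14 ± 0.06) and Psme1 (-0.0498) did not pass. In the middle window 7 of 7 members passed as higher in Lps (26.2% of all genes), 6 in Pic (23.1%), 7 in Cpg (24.9%) and 4 in Grd (23.6%). Pam had 1 member higher (25.1%) and 3 lower (37.7%), or 4 lower with Psmb9 read from the RefSeq probe set. In the late window 7 of 7 were higher in Lps (27.5%), 7 in Pic (26.9%), 4 in Cpg (22.7%) and 2 in Grd (25.5%), or 1 in Grd with the RefSeq probe set. Without the 12 h arrays the late Cpg count was 2. Late Grd also had 2 members lower (32.4%), and late Pam had 0 higher (23.6%; none at an unadjusted p under 0.05 either) and 6 lower (31.7%). Differences of 2-fold or more were few. Late Pic had 2 members at least 2-fold higher, Psmb9 and Psmb10 (4.53% of all genes were). With the EST probe set Psmb9 was also 2-fold higher in middle Lps (7.05%), Pic (4.93%) and Cpg (5.4%) and in late Lps (4.7%), and with the RefSeq probe set in none of these.

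**Figure D2:**
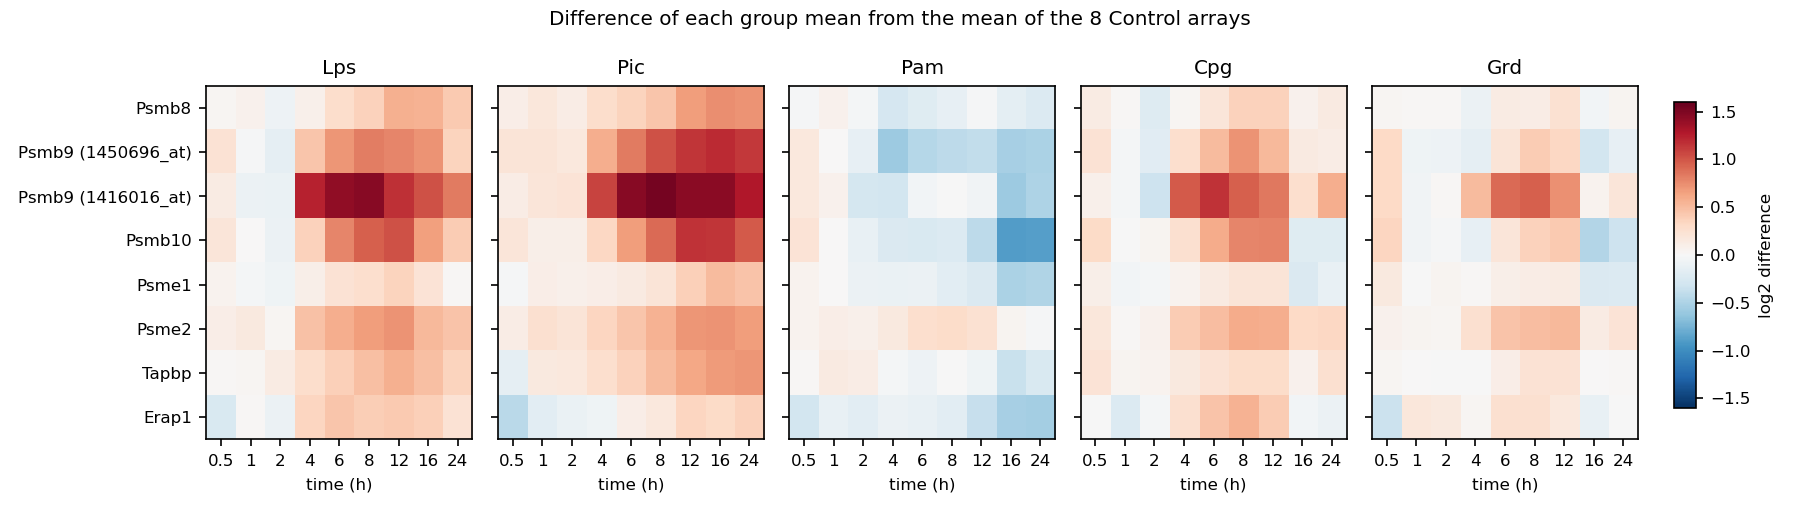
Log2 difference of each stimulus and time group mean from the mean of the 8 Control arrays, for the 7 members with both bright Psmb9 probe sets, over 5 stimuli and 9 times. Red is higher and blue lower than Control, on a scale of 1.6 either way. Lps and Pic are red from 4 h to 24 h, except Erap1 in Pic at 4 h (-0.0626) and Psme1 in Lps at 24 h, which is near 0, and the deepest blue is Psmb10 in Pam at 16 and 24 h.

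Psmb8 encodes the immunosubunit LMP7, which replaces Psmb5. Control arrays lay between 1516.2 and 2261.3. The 6 middle Pic arrays had a lowest, median and highest intensity of 2319.5, 2526.55 and 2714.8, and the 6 late ones of 3085.8, 3233.2 and 3351. Both sets of Pic arrays lay wholly above Control, and the late ones were the highest of any window. Late Lps arrays were at 2556.7, 2886.1 and 2922.2, also wholly above Control, and late Pam arrays at 1623.1, 1769.1 and 1977.6 overlapped it. Psmb8 rose by 0.36 ± 0.05 in middle Pic and by 0.71 ± 0.05 in late Pic (adjusted p = 3.74e-17, limma), a 1.63-fold difference. In Lps it rose by 0.25 ± 0.05 and then by 0.51 ± 0.05. The peak group mean was 3310.75, under Pic at 16 h, and under Lps it was 2915.9 at 12 h. Cpg gave 0.20 ± 0.05 and 0.19 ± 0.06 in the 2 windows, and the Grd differences of 0.05 and 0.08 did not pass.

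Psmb9 encodes LMP2, which replaces Psmb6. On the RefSeq probe set the 8 Control arrays lay between 704.9 and 1028.2. The late Pic arrays were at 1899.8, 1952 and 2025.2 (lowest, median and highest of 6), the late Lps arrays at 1103.9, 1431 and 1572.2 and the late Pam arrays at 592.8, 616.2 and 680. Pic and Lps were thus wholly above Control, and Pam wholly below it. In late Pic, Psmb9 rose 2.23-fold (log2 1.16 ± 0.05, adjusted p = 1.61e-26, limma). It fell by 0.49 ± 0.05 in middle Pam (adjusted p = 6.82e-12, limma) and by 0.48 in late Pam. Middle Lps and Cpg gave rises of 0.66 ± 0.05 and 0.50 ± 0.05. The EST probe set showed larger rises at 4 to 8 h: 1.37 ± 0.07 in Lps, 1.36 ± 0.07 in Pic, 1.03 ± 0.07 in Cpg and 0.79 ± 0.07 in Grd. Its middle Pam arrays, at 563.9, 682.2 and 721.8, overlapped Control (469.6 to 830.6), and its difference of -0.11 did not pass. On the RefSeq probe set the middle Pic rise was 0.81 ± 0.05 and the middle Grd rise 0.16 ± 0.05. The 2 probe sets therefore gave rises of different size in the middle window in Lps, Pic, Cpg and Grd, and differ in whether middle Pam passed. Across the 46 group means they correlated with r = 0.907, a description of points that share arrays.

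Psmb10 encodes MECL-1, which replaces Psmb7, and its group means ran from 0.90 below the Control mean (Pam, 16 h) to 1.15 above it (Pic, 12 h) on the log2 scale. Control arrays lay between 1006.4 and 1539.2. Late Pic arrays were at 2601.6, 2892.2 and 2998.7, late Lps arrays at 1699.9, 2088.8 and 2693.1, and late Pam arrays at 694.3, 732.6 and 1003.5. Pic and Lps lay wholly above Control and Pam wholly below. Psmb10 rose by 1.09 ± 0.05 in late Pic (2.14-fold, adjusted p = 1.35e-24, limma) and by 0.69 ± 0.05 in late Lps, and it fell by 0.73 ± 0.05 in late Pam (0.602 times Control, adjusted p = 2.89e-17, limma). Middle Cpg arrays, at 1558.3, 1993.9 and 2307.9, were also wholly above Control, and late Cpg arrays spread from 1154 to 2461.5.

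Psme1 and Psme2 encode the 2 subunits of the PA28 activator. Psme1 had small differences: Control arrays were at 2378.2 to 3263.3, late Pic arrays at 3857.7, 4066.85 and 4229.6, and late Pam arrays at 2038.2, 2145.25 and 2607. Pic lay wholly above Control, and 4 of the 6 Pam arrays lay below it. Psme1 rose by 0.45 ± 0.04 in late Pic (adjusted p = 1.11e-14, limma) and fell by 0.40 ± 0.04 in late Pam. Psme2 did not pass as lower than the 8 Control arrays in any window. Its Control arrays were at 2351.9 to 3677.3, its late Pic arrays at 4883.9, 5112.55 and 5242, and its late Pam arrays at 3080.6, 3220.4 and 3790.7. Psme2 rose by 0.70 ± 0.05 in late Pic (adjusted p = 4.69e-18, limma) and, among the middle windows, by 0.57 in Lps, 0.50 in Cpg, 0.40 in Grd and 0.24 in Pam. The late Pam difference of 0.09 ± 0.05 did not pass. Against the Control arrays of 12 and 24 h alone it was 0.37 and passed (adjusted p = 3.5e-09, limma).

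Tapasin (Tapbp) bridges TAP and class I molecules. On the brighter probe set, Control arrays lay between 2614.3 and 4308.3. Late Pic arrays were at 5596.2, 5950.2 and 6098.1 and late Lps arrays at 4385.5, 5178.2 and 5782.1, both wholly above Control, and late Pam arrays were at 2883.5, 3138.4 and 3570.8, within it. Tapbp rose by 0.67 ± 0.06 in late Pic (adjusted p = 2.11e-15, limma) and by 0.47 ± 0.06 in late Lps, and its highest group mean was 6055.45, under Pic at 24 h. The dimmer probe set was also above Control in late Pic, at 550.4, 665.85 and 810.5 against 232.9 to 460.6. The 2 probe sets disagreed in the early window, where the dimmer one gave -0.47 ± 0.12 in Lps and the brighter one 0.06 ± 0.06.

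Erap1 trims peptides in the endoplasmic reticulum and had 1 probe set. Its Control arrays lay between 210.7 and 266.6. Middle Lps arrays were at 273.4, 302.9 and 321.6, wholly above Control, and middle Pic arrays at 202.6, 244.3 and 259.9 overlapped it. Late Pic arrays reached 276, 284.7 and 312.5, above Control, and late Pam arrays fell to 151, 159 and 193.1, below it. Erap1 passed later under Pic than under Lps. It rose by 0.39 ± 0.06 in middle Lps and 0.42 ± 0.06 in middle Cpg, the middle Pic difference was 0.07 ± 0.06 (adjusted p = 0.323, limma), and late Pic gave a rise of 0.34 ± 0.06 (adjusted p = 3.9e-06, limma). In late Pam it fell by 0.48 ± 0.06. The highest group mean was 334.4, under Cpg at 8 h.

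The late falls under Pam rest on the baseline for some members. Against the Control arrays of 12 and 24 h alone, with all late stimulus arrays kept, Psmb10, Psme1 and Erap1 stayed lower in late Pam (-0.40, -0.19 and -0.43). Psmb8 (0.20) and Psme2 (0.37) passed as higher there, so that 2 of 7 were higher and 3 lower. Shares of all genes that passed are not given with this baseline. Psmb9 on the EST probe set (0.0718) and Tapbp (0.0302) changed sign and did not pass. All of these values rest on 2 Control arrays. The Grd falls of Psmb10 and Psme1 (-0.13 and -0.11) turned to rises of 0.20 and 0.11 with that baseline. Leaving out the 16 h arrays, with all 8 Control arrays, put Psmb10 in late Grd at 0.0375. Neither Grd fall passed without the Control array of 2 h or 1 h, the first Grd array of 24 h or the second of 12 h. The middle Pam count of 3 lower was 5 without the 24 h Control array. The late rises under Lps and Pic were larger against the Control arrays of 12 and 24 h. They ran from 0.39 for Erap1 to 1.46 for Psmb9 on the EST probe set in Lps. In Pic they ran from 0.38 to 1.84 for the same genes and probe set. Against all 8 Control arrays the EST probe set gave 1.01 in late Lps and 1.39 in late Pic.

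Stimuli were then compared directly, with no Control array. In the late window 7 of 7 members were higher in Pic than in Pam (27% of all genes were). Their arrays did not overlap for any member, but for how many of all genes this holds was not counted. Psmb10 was 3.55-fold higher (log2 1.83 ± 0.06, adjusted p = 3.26e-33, limma), Psmb9 3.11-fold (1.64 ± 0.06, adjusted p = 5.25e-32) and Tapbp 1.85-fold. The folds were 1.81 for Psme1, 1.79 for Psmb8, 1.76 for Erap1 and 1.53 for Psme2. In the middle window also 7 of 7 were higher in Pic than in Pam (23.2%), by 0.20 ± 0.05 for Psme2 up to 1.30 ± 0.06 for Psmb9. Lps exceeded Pam in 7 of 7 members in the middle (19.6%) and late (18.4%) windows, with late differences of 1.42 ± 0.06 for Psmb10, 1.10 ± 0.06 for Psmb9, 0.82 ± 0.07 for Erap1 and 0.47 ± 0.05 for Psme2.

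**Figure D3:**
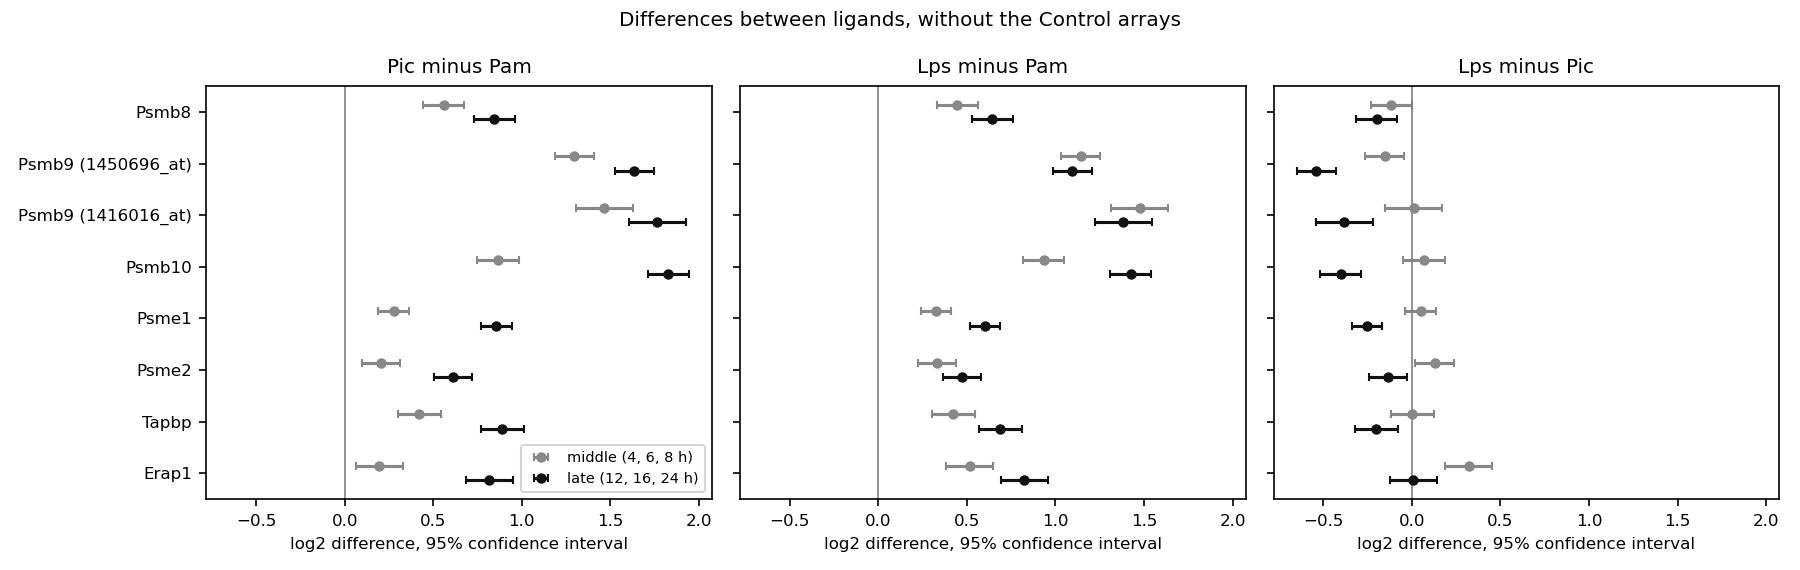
Log2 difference between stimuli for each member (Pic minus Pam, Lps minus Pam, Lps minus Pic), with 95% confidence intervals of the linear model as bars. Grey is the middle window and black the late window. All Pic minus Pam and Lps minus Pam points lie above 0, and the late Lps minus Pic points lie below 0 except that of Erap1.

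Lps and Pic parted over time. In the middle window 2 of 7 members were higher in Lps than in Pic (19.6%): Erap1 by 0.32 ± 0.07 (adjusted p = 5.01e-05, limma) and Psme2 by 0.13 ± 0.05 (adjusted p = 0.044, limma). On the RefSeq probe set Psmb9 was lower in Lps by 0.15 (29.2% of all genes were lower), and no other member passed. In the late window 6 of 7 were lower in Lps than in Pic (23.8%), Psmb10 by 0.40 ± 0.06 and Psmb9 by 0.54 ± 0.06 (adjusted p = 5.48e-08 and 4.53e-12, limma). Their late arrays did not overlap for Psmb8 and Psmb9, a comparison that was not counted over all genes. Erap1 differed by 0.01, with a 95% interval from -0.13 to 0.14. Without the 24 h arrays 3 of 7 were lower.

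Pic also exceeded Cpg and Grd in the late window, in 7 of 7 members each (23.6% and 27.1%). Against Grd the differences ran from 0.32 ± 0.07 for Erap1 to 1.23 ± 0.06 for Psmb10, and against Cpg from 0.25 ± 0.08 to 0.96 ± 0.07 for the same genes. In the middle window Pic was higher than Cpg in 3 members (26.4%) and lower in 1 (22.8%), which was Erap1, and higher than Grd in 4 (24.1%). Lps was higher than Grd in 7 of 7 in both windows (17.5% and 15.1%) and higher than Cpg in 6 of 7 in the late window (7.89%). The last count was 2 of 7 without the single 16 h Cpg array, and 1 without all 16 h arrays. In the middle window it was 3 of 7 (11.5%), or 2 with the RefSeq probe set, and leaving out any 1 array gave 1 or 2. Pam was lower than Cpg and than Grd in 7 of 7 members in the middle (16.1% and 12.1%) and late (9.97% and 9.72%) windows, and than Grd in the middle window in 6 of 7 with the RefSeq probe set (Tapbp then had an adjusted p of 0.0523 in limma). Cpg was higher than Grd in 3 members in the middle window (10.9%), Psmb9 on the EST probe set, Psmb10 and Erap1, and in 1 in the late window (2.64%), Psmb10 by 0.27 ± 0.07, joined by Psmb9 with the RefSeq probe set. Psmb10 did not pass without the 12 h or without the 16 h arrays, and Psmb9 on the RefSeq probe set did not without the 16 h arrays (0.22, adjusted p = 0.144, limma).

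Between the middle and the late window the intensity of most members went up under Pic and down under Pam, in a test with no Control array. Psmb8 did not fall under Pam (0.06, not passed). Under Pic 6 of 7 rose (28% of all genes did), or 7 of 7 with the RefSeq probe set, from 0.25 ± 0.05 for Psme2 to 0.46 ± 0.06 for Psmb10 (adjusted p = 2.33e-09, limma). Under Pam 6 of 7 fell (19.3%), or 5 with the RefSeq probe set and 3 without the 8 h or the 16 h arrays, and Psmb10 fell most, by 0.50 ± 0.06 (adjusted p = 2.91e-10, limma). Under Cpg and Grd 4 of 7 fell in each (19.1% and 19%), namely Psmb9, Psmb10, Psme1 and Erap1, and 2 fell under Grd without the 16 h arrays. Under Lps Psmb8 rose by 0.26 ± 0.06 (1 of 7 higher, 38.5%), and 1 fell (24.4%), Psmb9 on the EST probe set by 0.36 ± 0.08. On the RefSeq probe set Psmb9 changed by -0.04 ± 0.06 under Lps, with an adjusted p above the threshold. Control levels also drifted down over time. Against the Control arrays of each window's own hours, the Pam difference moved up for Psmb8 (-0.26 to 0.20), Psmb9 on the EST probe set (-0.21 to 0.07), Psme2 (0.22 to 0.37) and Tapbp (-0.05 to 0.03). With that baseline it moved down for Psmb10 (-0.31 to -0.40), Psme1 (-0.15 to -0.19) and Erap1 (-0.07 to -0.43). These moves were not tested.

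The change from middle to late differed from that under Pic. It was lower in 7 of 7 members under Pam (18.9% of all genes), 7 under Cpg (13%), 7 under Grd (13.1%) and 5 under Lps (14.8%; 3 without the 4 h arrays). For Psmb10 the change under Pam was 0.96 lower than under Pic (adjusted p = 4.24e-14, limma), under Cpg 0.87 lower, under Grd 0.74 lower and under Lps 0.47 lower. For Erap1 under Lps it was 0.31 lower. Psmb8 (-0.08) and Tapbp (-0.20, adjusted p = 0.0552, limma) did not differ past the threshold between Lps and Pic. These 4 comparisons share the Pic arrays.

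Part of this change lay between 12 and 16 h, a step that was chosen after the values had been seen. Psmb10 had 1689.2 and 1836.7 on the 2 Grd arrays at 12 h and 890.8 and 1020.6 at 16 h. Under Cpg it had 2139.8 and 2461.5 at 12 h and 1154 on the single array at 16 h. Under Pic it stayed at 2893.6 and 2998.7, then 2890.8 and 2969.2. Psme2 under Grd went from 4382.2 and 4600 to 3375 and 3482.2, and Psmb9 from 1096.9 and 1110.8 to 712.7 and 718.2. In these groups the arrays of 12 h did not overlap those of 16 h, except under Pic. With so few arrays a time, for how many of all genes this holds was not counted.

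Psmb10 fell by 0.88 ± 0.10 under Grd (adjusted p = 1.01e-09, limma) and by 0.99 under Cpg in this step. The p-values of the step do not allow for its choice from the same values. There was no Control array at 16 h, so the step could not be set against unstimulated cells. The Cpg values at 16 h come from 1 array, which the model assumes to vary like the arrays of the other groups, so the Cpg step has no replicate of its own at 16 h. In all, 5 of 7 members fell under Grd (10.1% of all genes), 4 under Cpg (7.03%), 3 under Pam (5.44%; 1 without either first array), 1 under Lps (8.3%) and 0 under Pic (6.44%). On the RefSeq probe set the Pam step of Psmb9 was -0.14 and did not pass, against -0.54 on the EST probe set, which did. No member rose under Pic (8.42%), and at an unadjusted p under 0.05 the limma count in Pic was also 0 either way. The Psmb10 step under Grd was 0.88 lower than that under Pic (adjusted p = 1.6e-05, limma). In this test of the difference from Pic, 4 members were lower under Grd (3.09%), 2 under Cpg (2.09%) and 2 under Pam (1.79%), and under Lps 0 were (1.25%; Psmb10 and Psme1 at an unadjusted p under 0.05 in limma). With the RefSeq probe set 1 member was lower under Pam in this test. Leaving out any 1 array of the 2 stimuli gave 3 without the first Pic array of 12 h and 2 otherwise for Grd, and 0 or 1 for Pam. The summed macrophage markers went the other way in the same step, from 9121 and 9798 to 17305 and 17895 under Grd, from 8838 and 8958 to 14833 and 16471 under Pam, and from 6532 and 7275 to 11325 and 11338 under Lps. Under Pic they were at 4519 and 5637 and then at 5074 and 6203, which overlap. Under Cpg they were at 8875 and 9844, and at 14338 on the single 16 h array. The summed neutrophil markers fell with the members, from 4353 and 4392 to 2678 and 2817 under Grd and from 3139 and 3227 to 2397 and 2481 under Pam. The dendritic cell markers did so too, from 36642 and 37294 to 33391 and 33852 under Grd and from 38777 and 39007 to 34682 and 35905 under Pam. The part of these cells in the step was not tested.

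**Figure D4:**
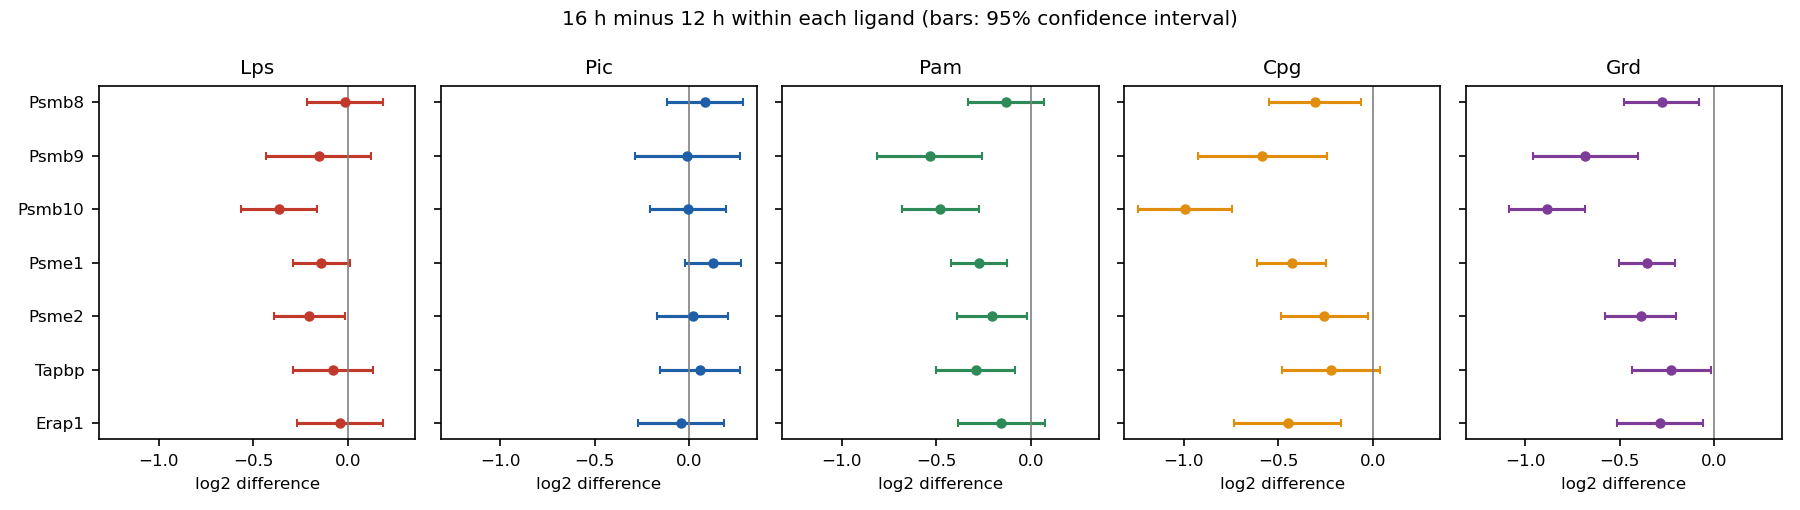
Log2 difference of the 16 h arrays from the 12 h arrays of the same stimulus, for the 7 members, with 95% confidence intervals of the linear model as bars. Psmb10 has the lowest points under Cpg and Grd, at -0.99 and -0.88, and the Pic points lie around 0.

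The constitutive counterparts of the immunosubunits were lower in Pic than in Pam in the middle window. Their list, with the PA28 gamma subunit Psme3, had 4 genes that could be tested of 6. Against Control in the middle window all 4 rose under Pam (Psmb6 by 0.84, Psme3 by 0.51, Psmb5 by 0.33 and Psmb7 by 0.32), while Pic had 1 rise (Psmb6, 0.27) and 1 fall (Psmb5, -0.13). With arrays centred on their median that fall stood at -0.02 and did not pass. Pic minus Pam in the middle window was lower in 4 of 4: -0.56 ± 0.06 for Psmb6, -0.52 ± 0.06 for Psme3, -0.46 ± 0.04 for Psmb5 and -0.32 ± 0.06 for Psmb7, where the median of all genes was -0.03. In the late window Psmb6 was higher in Pic by 0.46, Psmb5 and Psme3 were lower by 0.50 and 0.32, and Psmb7 at -0.08 did not pass.

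Most other proteasome genes were also lower in Pic than in Pam in the middle window. Of 30 tested subunits outside the members, 24 were lower in Pic than in Pam (35.7% of all genes were) and 2 higher (Psma4 and Psmf1; 23.2%), with a median of -0.29. With arrays centred on their median 20 were lower, and Psmb2, Psmb3, Psmd4 and Psmd8 no longer passed. Psmd5 (-1.05) and Psma6 (-0.87) were among the lowest. Late, 17 were lower (34.6%) and 4 higher (27%), with a median of -0.16. With arrays centred, the late counts were 13 and 6. Against Control, 25 of 30 rose in middle Pam (25.1% of all genes did). In middle Pic 6 rose, a share near that of all genes (23.1%), and 9 fell (46.3%). Centring moved the median of all genes in middle Pic from -0.10 to 0.0086, and 16 of the 30 subunits then passed as higher. Shares of all genes that passed after centring are not given, so the centred counts have no background beside them.

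**Figure D5:**
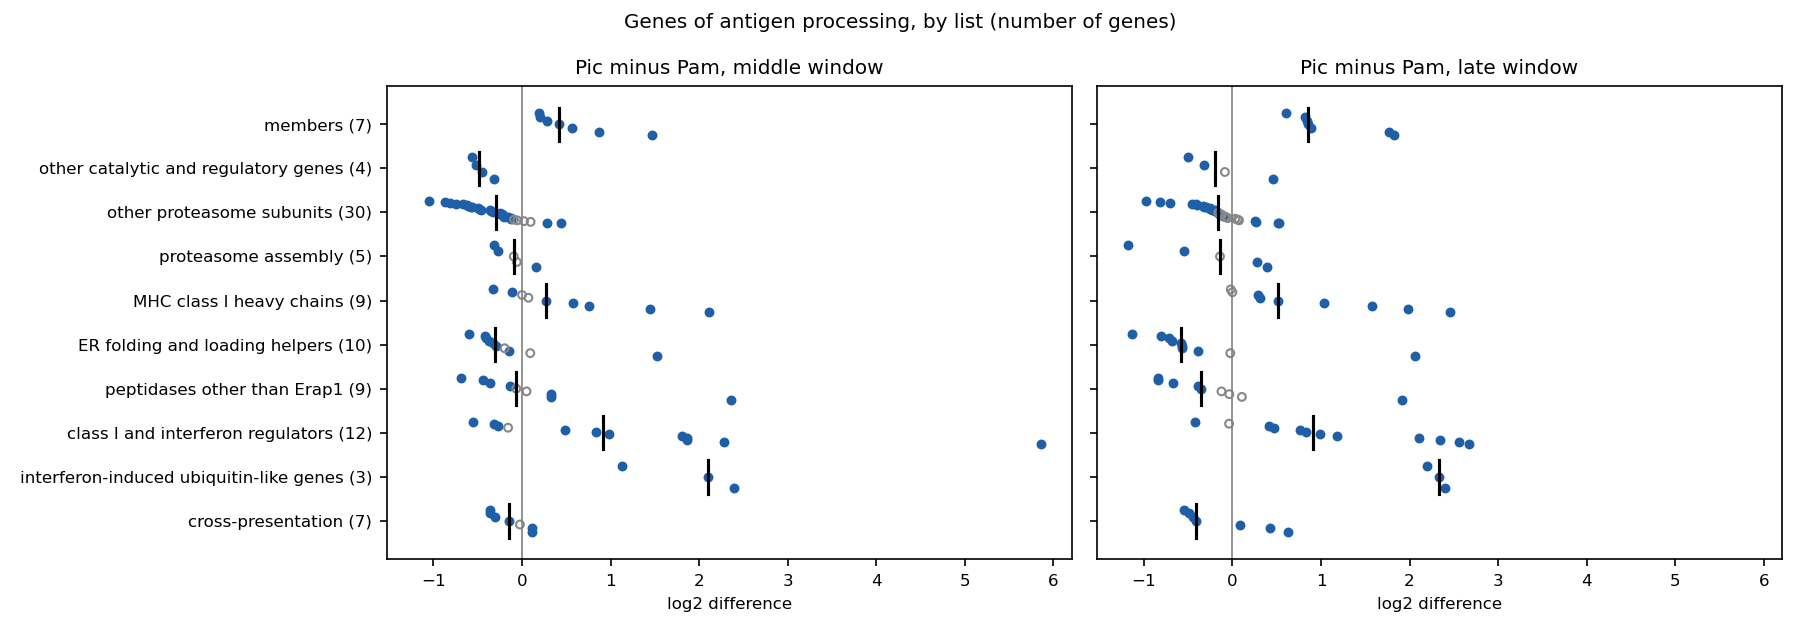
Log2 difference of Pic minus Pam in the middle (left) and late (right) windows for the members and the genes of each related list, 1 point a gene. Filled points passed, open points did not, and bars are the list medians. The members lie above 0, most other proteasome subunits and folding helpers below it, and the point farthest right in the middle window is Ifnb1, which lay at the floor of 20 under Control and Pam.

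Genes acting after the proteasome moved in both directions. In late Pic minus late Pam, 27% of all genes passed as higher and 34.6% as lower. Of 9 tested class I heavy chain genes, 7 were higher and none lower, among them H2-Q4 (2.45 ± 0.10), H2-T24 (1.98 ± 0.12), H2-T10 (1.57 ± 0.05) and H2-T23 (1.03 ± 0.04). H2-K1 and H2-D1, which encode the classical heavy chains, were higher by 0.32 ± 0.03 and 0.29 ± 0.06. Heavy chain genes are alike in sequence, so their probe sets may share signal. Tapbpl, a tapasin-like peptide editor, was 2.06 ± 0.07 higher, the only gene higher among 10 folding and loading helpers. Another 8 of the 10 were lower, among them Pdia6 (-1.13), Calr (-0.81), Hsp90b1 (-0.72) and Canx (-0.57). Of 9 other peptidases, Lap3, a cytosolic leucine aminopeptidase, was the only one higher (1.92 ± 0.12), and 5 were lower, among them Tpp2 (-0.84) and Ide (-0.84).

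Regulators of class I and interferon genes were mostly higher in Pic than in Pam. In the middle window 8 of 12 were higher (23.2% of all genes) and 3 lower (35.7%), and late 10 were higher (27%) and 1 lower (34.6%). Irf1, a transcription factor of immunosubunit genes, was 2.28 higher in the middle and 2.11 higher in the late window, Irf7 1.81 and 2.55, and Stat2 1.86 and 2.34. All 3 tested genes of the ISG15 and related conjugation system, Usp18, Uba7 and Ube2l6, were higher in both windows, in the late one by 2.40, 2.33 and 2.19. These lists were compared with the medians over all genes, -0.03 in the middle and -0.01 in the late window, and got no test as lists.

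Across the 46 group means, the genes most like each member by Pearson's r were found among all tested named genes. The points share arrays and plate, and r is a description. Psmb8 was most like Irf7 (0.919) and Tapbp (0.915). Psmb9 on the RefSeq probe set was most like 1600014C10Rik (0.969) and Psmb10 (0.946), and on the EST probe set most like Iigp1 (0.979), Tgtp1 (0.973) and Ifi47 (0.972). Psmb10 and Psme1 were most like each other (0.956), followed by Eng for Psmb10 (0.937) and Ifi27l2a for Psme1 (0.917). Psme2 was most like Plaat3 (0.938) and Rnf114 (0.929), Tapbp most like H2-T23 (0.936) and Irf7 (0.927), and Erap1 most like Lgals9 (0.885). Between members, r ran from 0.676 for Psmb8 with Erap1 to 0.956 for Psmb10 with Psme1.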

How the data were processed

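The study deposited 96 single-colour arrays of mouse dendritic cells with 18858 probe sets each. Per the submitters' processing notes the authors used RMA, of unstated version, and what they deposited is a linear intensity per probe set, with a floor of 20 and a highest value of 16401.5. The return to a linear scale and the floor are not explained there. Of the probe sets, 4409 never left the floor and were dropped. The platform annotation gave 1 symbol to 15044 probe sets. A gene with several was read from its brightest on average, which left 10543 items. Values were analysed as log2(intensity + 1) in 1 linear model of limma 3.58.1 (R 4.3.3) with 46 group means and 50 residual degrees of freedom, with two-sided tests and Benjamini-Hochberg adjustment over all items. Called means an adjusted p under 0.05 and at least a 2-fold difference. Tables and figures were made with Python 3.11.15, pandas 2.3.3 and matplotlib 3.10.9. The model was tested on simulated data. Alternatives were other scalings, pseudocounts, filters, probe sets, Control baselines, array weights, left-out arrays and times, and a replicate block. The members, lists and comparisons were chosen with earlier results of these data known. Named genes are the members, the genes most like each, and members of the related lists with the largest differences. Precision is limited by how many arrays a group has. No protein sequences were used here.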

Additional observations from a re-analysis of the deposited data

Results flagged for a closer look

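Among the 8 Control arrays, 1 value of a member stood apart from the rest. Tapbp on its brighter probe set had 2614.3 at 24 h, and its gap to the nearest array was 0.594 of the range, above Dixon's critical value of 0.526. Chance gives such a value in about 1 in 20 groups.

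The log2 intensity under a stimulus changed between the middle and the late window, by a test of the change itself with no Control array, in 22 cases (limma, adjusted over all genes). Under Pic it rose by 0.35 for Psmb8, 0.46 for Psmb10, 0.30 for Psme1, 0.25 for Psme2, 0.29 for Tapbp and 0.27 for Erap1. Under Pam the change was -0.27 for Psmb9, -0.50 for Psmb10, -0.28 for Psme1, -0.15 for Psme2, -0.18 for Tapbp and -0.35 for Erap1. Under Cpg it was -0.47 for Psmb9, -0.40 for Psmb10, -0.18 for Psme1 (-0.1850) and -0.33 for Erap1. Under Grd it was -0.46 for Psmb9, -0.28 for Psmb10, -0.18 for Psme1 and -0.17 for Erap1. Under Lps it was 0.26 for Psmb8 and -0.36 for Psmb9. Psmb9 is read from its EST probe set throughout this section. Control levels also drifted down over time, so a fall in intensity need not be a fall relative to unstimulated cells. Against the Control arrays of each window's own hours, Psmb9 under Lps was at 1.27 in the middle and at 1.46 in the late window. Psmb10 under Pam was at -0.31 and then at -0.40 with that baseline.

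The change from the middle to the late window also differed from that under Pic. Under Pam it was -0.28 for Psmb8, -0.30 for Psmb9, -0.96 for Psmb10, -0.58 for Psme1, -0.41 for Psme2, -0.47 for Tapbp and -0.62 for Erap1 relative to Pic. Under Cpg it was -0.35, -0.50, -0.87, -0.49, -0.35, -0.31 and -0.60 for the same genes in this order, and under Grd -0.32, -0.49, -0.74, -0.48, -0.37, -0.32 and -0.44. Under Lps it was -0.39 for Psmb9, -0.47 for Psmb10, -0.30 for Psme1, -0.26 for Psme2 and -0.31 for Erap1.

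The step from 12 to 16 h differed from that under Pic in 8 cases. Under Grd it was -0.67 for Psmb9, -0.88 for Psmb10, -0.48 for Psme1 and -0.41 for Psme2, under Cpg -0.98 for Psmb10 and -0.55 for Psme1, and under Pam -0.47 for Psmb10 and -0.40 for Psme1, all relative to Pic.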

How the results depend on the processing

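Counts of members below are those that passed (adjusted p under 0.05, limma), with the reported count in brackets, and differences are on the log2 scale. Psmb9 is read from its EST probe set unless another is named. Of 1473 recomputed counts, 1360 stayed within 1.5 times the reported count, and of 3504 recomputed differences of single members 3312 kept their direction and side of the threshold, 164 no longer passed and 28 changed sign. The cause of each change was not tested. Counts of differences between Pic or Lps and Pam changed by no more than 1 under any alternative run.

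The Control baseline changed many values, and shares of all genes that passed are not given for the baselines below. With Control arrays of the window's own hours and all stimulus arrays kept, a choice made after the data had been seen, late Pam turned to 0.20 (-0.14) for Psmb8, 0.0718 (-0.38) for Psmb9 and 0.0302 (-0.22) for Tapbp, late Grd to 0.1969 (-0.13) for Psmb10 and 0.1060 (-0.11) for Psme1, and early Pic to -0.0156 for Psmb8, -0.0342 for Psmb9 and -0.0308 for Psmb10. The higher counts became 6 (2) in late Grd, 2 (0) in late Pam and 0 (4) in early Pic, and the lower counts 4 (0) in early Cpg, 4 (0) in early Lps, 4 (1) in early Pam, 3 (6) in late Pam and 0 (2) in late Grd. With Control and stimulus arrays of the same times only, which also drops the stimulus arrays of 0.5 h and 16 h, late Pam turned to 0.21 (-0.14) for Psmb8, 0.18 (-0.38) for Psmb9 and 0.10 (-0.22) for Tapbp, late Grd to 0.37 (-0.13) for Psmb10 and 0.17 (-0.11) for Psme1, and early Pic to -0.0647 (0.13) for Psmb10. The higher counts became 6 (2) in late Grd, 3 (0) in late Pam and 0 (4) in early Pic, and the lower counts 6 (0) in early Cpg, 2 (0) in early Grd, 0 (2) in late Grd, 4 (0) in early Lps, 4 (1) in early Pam and 3 (6) in late Pam. With a linear trend fitted to Control, late Grd turned to 0.0602 for Psmb10 and 0.0441 for Psme1, late Pam to 0.0843 for Psmb8, and early Pic to -0.0198 for Psmb10, -0.0326 (0.14) for Psmb8 and -0.0505 (0.18) for Psmb9. Higher counts became 4 (2) in late Grd, 7 (4) in middle Grd, 1 (0) in late Pam and 0 (4) in early Pic, and lower counts 3 (0) in early Cpg, 1 (0) in early Grd, 0 (2) in late Grd, 3 (0) in early Lps, 4 (1) in early Pam and 3 (6) in late Pam. With the Control slope taken on hours, 6 (3) members fell.

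The probe set mattered for Psmb9 and Tapbp. With the RefSeq probe set, Psmb9 turned to -0.0284 (0.33) in late Grd and to 0.0075 (-0.27) from middle to late Pam. Counts became 2 (1) higher for Cpg minus Grd late, 1 (2) higher in late Grd, 0 (1) lower from middle to late Lps, 1 (0) lower for Lps minus Pic in the middle window, and 1 (2) lower for the Pam step from 12 to 16 h relative to Pic. With the dimmest probe set, Psmb9 turned to -0.0425 (0.34) for Lps minus Cpg and -0.0121 (0.32) for Pic minus Cpg in the middle window, and Tapbp to -0.0798 (0.15) and -0.21 (0.15). Higher counts became 2 (4) in late Cpg, 1 (2) in late Grd, 1 (3) for Lps minus Cpg, 1 (3) for Pic minus Cpg and 2 (4) for Pic minus Grd in the middle window, and lower counts 1 (0) in early Grd, 1 (0) in early Lps, 2 (1) in early Pam and 2 (1) in early Pic. With the mean of the probe sets, Tapbp turned to -0.0303 for Pic minus Cpg in the middle window, Cpg minus Grd late had 2 (1) higher, early Lps 1 (0) lower and early Pic 2 (1) lower.

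With arrays centred on their median, higher counts became 3 (0) in early Cpg, 7 (3) for Cpg minus Grd and 7 (4) for Grd in the middle window, 2 (0) in early Lps, 0 (1) from middle to late Lps, 4 (2) for Lps minus Pic in the middle window and 2 (0) in early Pam. Lower counts became 1 (2) in late Grd, 2 (1) for the Lps step from 12 to 16 h, 5 (1) from middle to late Lps, 0 (1) in early Pam and 1 (2) for the Pam step relative to Pic. Quantile normalization gave 2 (1) higher from middle to late Lps, 1 (2) higher and 1 (0) lower for Lps minus Pic in the middle window, 0 (1) lower in early Pam and 1 (2) for the Pam step relative to Pic. Array weights gave higher counts of 3 (1) and 6 (3) for Cpg minus Grd in the late and middle windows, 2 (1) from middle to late Lps and 1 (4) in early Pic. Lower counts with weights were 2 (0) in early Cpg, 1 (0) in late Cpg, 3 (1) for the Lps step, 2 (0) in early Lps, 1 (0) for Lps minus Pic in the middle window, 5 (3) for the Pam step, 0 (1) in early Pam and 5 (3) in middle Pam. Relative to Pic the weighted steps had 2 (0) lower for Lps, 4 (2) for Pam and 4 (2) for Cpg. Without the filter, Lps minus Pic had 1 (2) higher in the middle window and early Pic 2 (4).

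Leaving out 0.5 h gave 0 (1) lower in early Pam and in early Pic. Leaving out 1 h gave 1 (0) higher in early Cpg and early Grd, 1 (4) in early Pic, and 1 (0) lower in early Lps, and leaving out 2 h gave 1 (4) higher in early Pic. For the middle window, Lps minus Cpg had 1 (3) higher without 4 h or 6 h and 0 without 8 h, Lps minus Pic 1 (2) and Pic minus Cpg 1 (3) without any of these times, and Grd 2 (4) without 6 h or 8 h. From middle to late, Lps had 2 (1) lower without 4 h or 12 h, Pam 3 (6) without 8 h or 16 h, Grd 2 (4) without 16 h and the Lps change relative to Pic 3 (5) without 4 h. Without 12 h, late Cpg had 2 (4) higher and 2 (0) lower, late Grd 1 (2) higher, and Cpg minus Grd late 0 (1). Without 16 h, Psmb10 in late Grd turned to 0.0375, Cpg minus Grd late had 0 (1) higher, Lps minus Cpg late 1 (6) and late Grd 0 (2) lower. Without 24 h, late Pam had 1 (0) higher, late Grd 0 (2) lower and Lps minus Pic late 3 (6) lower.

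Leaving out 1 array at a time reversed none of 3168 single differences, and 2981 kept their side of the threshold. Counts then ranged as follows. Falling in Control they were 0 to 4. Higher counts were 0 to 3 in early Cpg, 4 to 5 in late Cpg, 3 to 6 in middle Grd, 0 to 1 in early Lps, early Pam and late Pam, and 1 to 4 in early Pic. Between stimuli, higher counts were 1 to 2 and 2 to 3 for Cpg minus Grd late and middle, 2 to 6 and 1 to 2 for Lps minus Cpg late and middle, 1 to 2 for Lps minus Pic middle, 6 to 7 and 1 to 3 for Pic minus Cpg late and middle, and 6 to 7 for Lps minus Grd and Pic minus Pam in the middle window. Lower counts were 0 to 1 in early Cpg, late Cpg and early Lps, 0 to 2 in late Grd, 5 to 6 in late Pam, 3 to 5 in middle Pam, 5 to 6 for Lps minus Pic late and 5 to 7 for Pam minus Grd middle. From middle to late, lower counts were 3 to 4 in Cpg and Grd and 5 to 6 in Pam. For the step from 12 to 16 h they were 4 to 5 in Grd, 3 to 3 in Cpg, 0 to 1 in Lps and 1 to 3 in Pam, and relative to Pic 2 to 3 in Grd and 0 to 1 in Pam. The change from middle to late relative to Pic had 6 to 7 lower in Cpg and Pam and 5 to 6 in Lps.

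The replicate numbers showed no pairing common to all groups. Over 903 pairs of groups the correlation of their deviations ran from -0.33 to 0.35, with a median of 0.01 and 17.4% of pairs over 0.1. Pairs of groups within a stimulus were not looked at apart, so a pairing within a stimulus was not tested. With a replicate block, 2 of 244 differences that had passed no longer did, Psmb10 in early Pic (0.13, adjusted p = 0.0586, limma) and Psmb8 in late Pam (-0.12, adjusted p = 0.0603, limma). The floor of 20 limits dim probe sets, and of the members' it touched the dimmest Psmb9 one alone.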
